A study of Mus musculus with 4 samples.

Results

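Dppa2, Dppa3, Dppa4, Dppa5a, Utf1, Gdf3, Tdgf1 and Fbxo15 are 8 genes expressed in the early mouse embryo and in embryonic stem (ES) cells, and their levels were followed across 4 kinds of mouse cell. Every probe set whose only gene symbol was one of these names was taken, which gave 12 probe sets of the 34945 that carry a single symbol, or 8 of 18193 genes. The study hybridised biotin-labelled cRNA of each kind of cell to 1 Affymetrix oligonucleotide array, 4 arrays in all. Strain, sex and the number of animals or cultures behind each RNA are not given in the sources used here.

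The first array is labelled as sorted HB9-GFP+ cells, from a transgenic mouse ES line whose green fluorescent protein reporter marks HB9, the motor neuron factor encoded by Mnx1. Per the labels, that line was grown on mitomycin-treated embryonic fibroblasts with leukemia inhibitory factor and was then differentiated with retinoic acid at 0.1 uM, purmorphamine at 0.2 uM and Sonic hedgehog, all given from day 5 to day 9 and the sort stated for day 8. These days overlap, so the length of exposure is uncertain. The second array holds cerebellar granule cells of postnatal day 6, the third sorted Sox1 neural stem cells, and the fourth undifferentiated ES cells. The labels repeat the same culture text for every sample, so they do not say where the Sox1 cells came from, or whether the ES cells are the transgenic line on its feeders.

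The Dppa genes are named for developmental pluripotency association. Dppa2 and Dppa4 encode partner nuclear proteins with a SAP domain that bind DNA together and act upstream of cleavage-stage genes. Dppa3, also called Stella or PGC7, protects the maternal genome of the zygote from loss of DNA methylation, and Dppa5a encodes a KH-domain RNA-binding protein. Utf1 encodes a chromatin-bound transcription cofactor, Gdf3 a secreted ligand of the TGF-beta family, Tdgf1 (Cripto) the membrane-anchored co-receptor for Nodal, and Fbxo15 an F-box protein of ubiquitin ligases whose promoter is a known target of Pou5f1 and Sox2. In embryos and ES cells these genes are known for being shut down as cells leave pluripotency.

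Signals are linear intensities scaled to a common mean on each array. A signal of 78.8, the mean of the arrays' log2 medians, was taken as the low level, and a gene was called detected from 157.5, which is 1 log2 unit above. Signals under the low level were set to it, and a gene was called higher or lower from a difference of 2 log2 units (4-fold), provided that its brighter signal was a detected one. A fold against an array under the low level is therefore a lower bound, and no fold is given where the dimmer signal lay between the 2 levels. With 1 array per group no p-value exists, and a difference between arrays cannot be told apart from a difference between single RNA preparations. In bulk RNA, fewer cells of a type and less RNA per cell cannot be told apart either.

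The arrays had 9330 to 9518 genes detected and medians of 61.9 to 90.7. The 3' to 5' ratio of the actin control was 2.77 on the HB9-GFP+-labelled array, 2.29 for granule, 5.08 for Sox1 and 4.55 for ES. The ratio of the Gapdh control was 1.37, 2.70, 3.68 and 1.99 in the same order of arrays. The Sox1 array thus had the highest ratio of both controls, and the part of this in the Sox1 comparisons was not tested. The 2 controls place the granule array differently against the HB9-GFP+-labelled and ES arrays. The label of the first array is not borne out by motor neuron markers, of which 1 of 11 was detected there (Olig2, at 320.6), with Mnx1 at 15.9, while 16 of 16 naive pluripotency factors were detected on it and 16 of 16 on the ES array. It is called the HB9-GFP+-labelled array throughout. The granule array had 12 of 14 granule neuron markers detected and the Sox1 array 15 of 15 neural stem cell markers.

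All 8 genes were detected on the HB9-GFP+-labelled array, none in granule cells, 4 in Sox1 cells and all 8 in ES cells. Of all 18193 genes, 9330 were detected on the HB9-GFP+-labelled array, 9518 on granule, 9376 on Sox1 and 9420 on ES. On the probe set that represents each gene, the HB9-GFP+-labelled and ES arrays were both brighter than the Sox1 and granule arrays. Of the 12 probe sets, 1 for Utf1 was undetected on all 4 arrays, and signals under the low level have no order among themselves. The levels of different probe sets are not compared with each other, because probe sets bind with different strength.

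**Figure D1:**
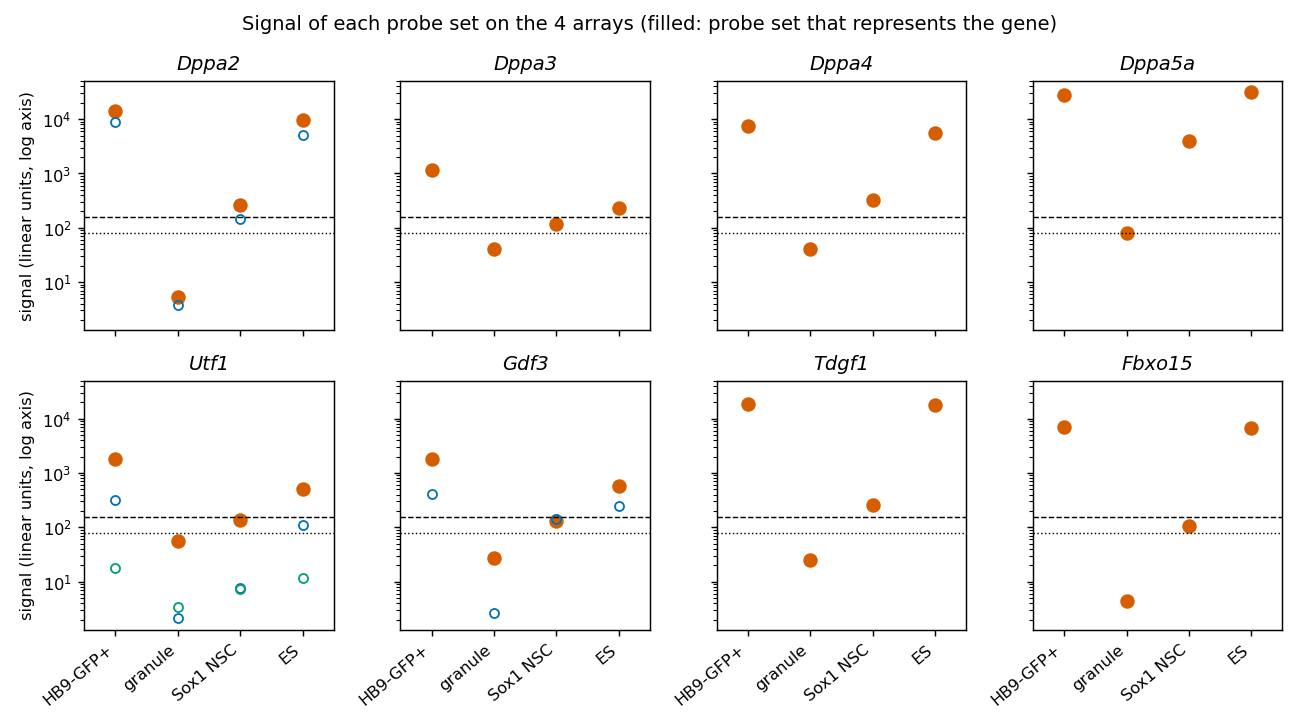
Signal (log axis) of each of the 12 probe sets on the HB9-GFP+-labelled array, the granule array, the Sox1 array and the ES array, with the probe set that represents a gene filled. The dashed line is the detection level of 157.5 and the dotted line the low level of 78.8. No filled point of the granule array reaches the dashed line.

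The SAP-domain pair came first. On the brighter of its probe sets, Dppa2 had a signal of 14057.6 on the HB9-GFP+-labelled array, 5.3 on granule, 257.7 on Sox1 and 9676.7 on ES. The second Dppa2 probe set read 8797 on the HB9-GFP+-labelled array, 3.8 on granule, 148.2 on Sox1 and 5219.1 on ES. Both probe sets thus separated the 2 bright arrays from the other 2, although on the second one the Sox1 signal was short of detection. Dppa4, measured by 1 probe set, was at 7487.4 on the HB9-GFP+-labelled array, 40.5 on granule, 327.5 on Sox1 and 5460.7 on ES. Its partner gene followed the same order, and both were detected, at a low level, in Sox1 cells.

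Dppa2 was 54.6-fold higher on the HB9-GFP+-labelled array than on the Sox1 array and Dppa4 22.9-fold higher. Against the granule array the bounds were at least 178-fold for Dppa2 and at least 95.1-fold for Dppa4. On the Sox1 array Dppa2 was 37.6-fold lower and Dppa4 16.7-fold lower than on the ES array.

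Dppa3 had a single probe set, which read 1153.5 on the HB9-GFP+-labelled array, 40.6 on granule, 115.1 on Sox1 and 231 on ES. Its ES signal was not far above the detection level, and its Sox1 and granule signals were below it. Dppa5a read 27366.6 on the HB9-GFP+-labelled array, 79.1 on granule, 3928.3 on Sox1 and 31169.8 on ES. Dppa5a was therefore still clearly detected in Sox1 cells, 7.94-fold lower than in ES cells, and on the granule array it lay at the low level. RefSeq lists pseudogenes named Dppa5b, Dppa5c and Dppa3-ps, and whether the probes also bind transcripts of these was not tested.

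Utf1 and Gdf3 were next. The brightest Utf1 probe set read 1801.6 on the HB9-GFP+-labelled array, 56.7 on granule, 134.6 on Sox1 and 510.5 on ES. A second one read 312, 2.1, 7.5 and 109.8 in the same order of arrays, and the remaining one stayed at 17.9 or below on every array. Only the first Utf1 probe set was detected on the ES array, so the ES level of the gene rests on it. The brighter Gdf3 probe set read 1804.8 on the HB9-GFP+-labelled array, 26.7 on granule, 131.6 on Sox1 and 571.6 on ES, and the other one 416.6, 2.6, 143.1 and 247.3. Both Gdf3 probe sets were detected on the HB9-GFP+-labelled array and on the ES array and on neither of the other 2.

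Tdgf1, the Nodal co-receptor gene, read 18715.6 on the HB9-GFP+-labelled array, 25 on granule, 261.5 on Sox1 and 17646 on ES. It was 67.5-fold lower on the Sox1 array than on the ES array and at least 224-fold lower on the granule array. RefSeq lists pseudogenes Tdgf1-ps1 and Tdgf1-ps2, whose share in the signal was not tested. Fbxo15 read 7171.9 on the HB9-GFP+-labelled array, 4.4 on granule, 105 on Sox1 and 6857.6 on ES. These genes had nearly equal signals on the 2 bright arrays, and Fbxo15 was undetected on both of the others.

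Promoter sequence was at hand for Utf1 and Tdgf1, 2 of the 8 genes, from the RefSeq annotation of GRCm38.p6, as the 250 bases before and 50 after the start of the gene. They are shown because no window was at hand for the other genes, and not for their pattern over the arrays. Each is given 5′ to 3′ on the strand of its gene, and capitals mark GGGCGG or its reverse complement, the GC box bound by Sp factors. Utf1 lies at chr7:139943606-139943905 on the plus strand and Tdgf1 at chr9:110946109-110946408 on the minus strand.
Utf1: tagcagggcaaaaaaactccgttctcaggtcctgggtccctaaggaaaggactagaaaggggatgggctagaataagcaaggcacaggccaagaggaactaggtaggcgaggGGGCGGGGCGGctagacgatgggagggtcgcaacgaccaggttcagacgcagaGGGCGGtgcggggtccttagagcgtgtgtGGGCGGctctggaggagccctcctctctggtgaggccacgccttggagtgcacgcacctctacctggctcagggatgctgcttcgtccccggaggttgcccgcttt
Tdgf1: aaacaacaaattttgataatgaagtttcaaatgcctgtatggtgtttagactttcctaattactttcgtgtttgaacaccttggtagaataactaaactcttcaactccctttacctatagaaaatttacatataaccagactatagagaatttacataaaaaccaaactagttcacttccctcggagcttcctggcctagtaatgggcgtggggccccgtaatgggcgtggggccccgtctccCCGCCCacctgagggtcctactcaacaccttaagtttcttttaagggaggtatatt

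The Utf1 window had 17 CpG dinucleotides and 62.0% G and C, against medians of 7 and 52.7% over 32851 promoter windows of the same length. The Tdgf1 window had 7 CpG dinucleotides and 41.7% G and C. GGGCGG, searched on both strands, matched 4 times in Utf1, with the first 2 matches overlapping by their last and first base, and 1 time in Tdgf1. It occurs in 35.7% of all windows. The octamer ATGCAAAT of POU factors (1.74% of windows), the SOX core CATTGT (12.6%), the CCAAT box (37.4%) and TATAAA (13.6%) had no match in either. In the Tdgf1 window a run of 19 bases, gtaatgggcgtggggcccc, occurs as 2 adjacent copies just upstream of the start. These are descriptions of letters in the windows and do not show binding.

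The comparison of the HB9-GFP+-labelled array with the ES array sets the array whose label names reporter-sorted cells, which its markers do not bear out, against undifferentiated cells. Of the 8 genes 1 was called higher, Dppa3, and 0 lower, against 2.00% of 10117 detected genes called higher and 1.46% called lower. Dppa3 was 4.99-fold higher, a log2 difference of 2.32. Utf1 (3.53-fold, log2 1.82) and Gdf3 (3.16-fold, log2 1.66) fell short of the rule, and 264 of the detected genes had a larger positive difference than Utf1 and 366 a larger one than Gdf3. On further probe sets the log2 difference was 1.51 for Utf1, with the ES signal undetected, and 0.75 for Gdf3.

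On the probe sets that represent them, the other 5 genes differed by less than 0.60 log2 units. That is the pooled SD of a gene's difference among its probe sets in this comparison. The log2 differences were 0.54 for Dppa2, 0.46 for Dppa4, 0.08 for Tdgf1, 0.06 for Fbxo15 and -0.19 for Dppa5a. The second Dppa2 probe set gave 0.75, and both Dppa2 probe sets averaged gave 0.65, each above that SD. For Dppa4, Tdgf1, Fbxo15 and Dppa5a the HB9-GFP+-labelled array and the ES array cannot be ordered beyond that spread. For Dppa2 this depends on the probe set. That SD covers probe sets on these arrays and holds no variation between cultures. The 8 genes had a median log2 difference of 0.50, against 0.04 over all detected genes.

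**Figure D2:**
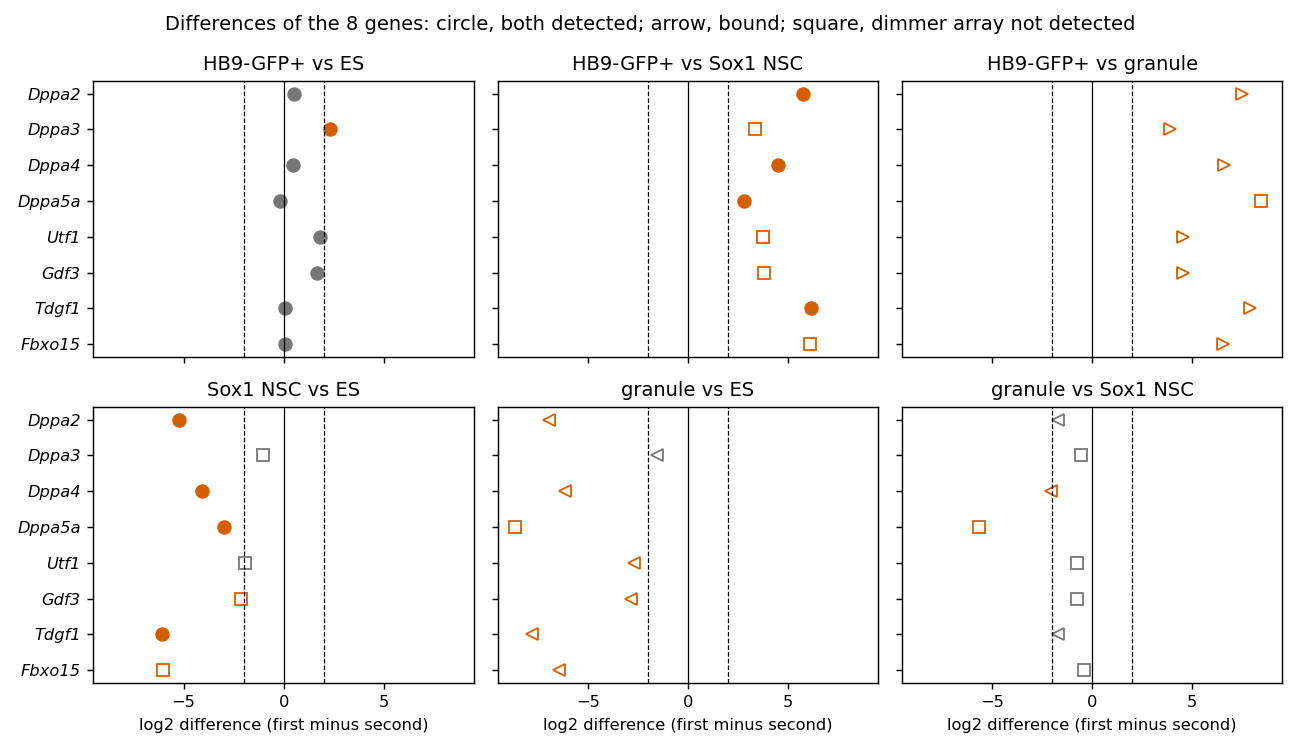
Log2 difference of each of the 8 genes in the 6 comparisons, first-named array minus second-named, with called genes in orange and others in grey. Circles have both arrays detected, arrows are bounds against the low level, and squares have a dimmer signal between the low and detection levels or are undetected on both. In the comparison of the HB9-GFP+-labelled array with ES, Dppa3 alone passes the dashed line at 2.

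Genes tied to the same processes were set beside them. Of 21 measured genes of the early embryo and germline, 3 were higher on the HB9-GFP+-labelled array than on the ES array and 1 lower, and the list's median was 0.28 log2 units. The higher ones were Tcstv1, a gene of cleavage-stage embryos (692.2 against 87.9), Sycp1, of the synaptonemal complex (407.1 against 88.9), and Piwil2, of the piRNA pathway (598.6 against 133.8), all undetected on the ES array. The lower one was Stra8, the retinoic acid-induced gene of meiotic entry, at 1731.3 against 7962.3. None of 16 naive pluripotency factors and none of 14 formative or primed epiblast genes was called in this comparison, with medians of 0.31 and 0.11. The largest differences among them were those of the POU factor Pou3f1, at 1347.8 against 341.5, and the nuclear receptor Nr0b1, at 4954.8 against 1917.7.

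For the DNA methylation proteins, whose work in the zygote is the setting of Dppa3, 0 of 9 genes were higher and 1 lower. The lower one was the dioxygenase gene Tet2, at 848.5 against 4189.7. Uhrf1, which brings Dnmt1 to replicating DNA and is a known partner of the Dppa3 protein, was at 5526 against 2497.3, short of 4-fold.

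Fibroblast genes moved in the same comparison. Of 20 measured fibroblast markers 11 were higher on the HB9-GFP+-labelled array and 0 lower, with a list median of 2.33 log2 units. Their summed signal was 48369.3 against 14148.6. The collagen gene Col3a1 was at 6165.2 against 20.6 and the proteoglycan gene Dcn at 3375.9 against 24. The lowest deposited value of any probe set was 0.1, so no marker could have a signal of 0. The part of such cells in the differences of Dppa3, Utf1 and Gdf3 was not tested. The actin 3' to 5' ratio was also lower on the HB9-GFP+-labelled array, as given above, and its part was not tested either.

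**Figure D3:**
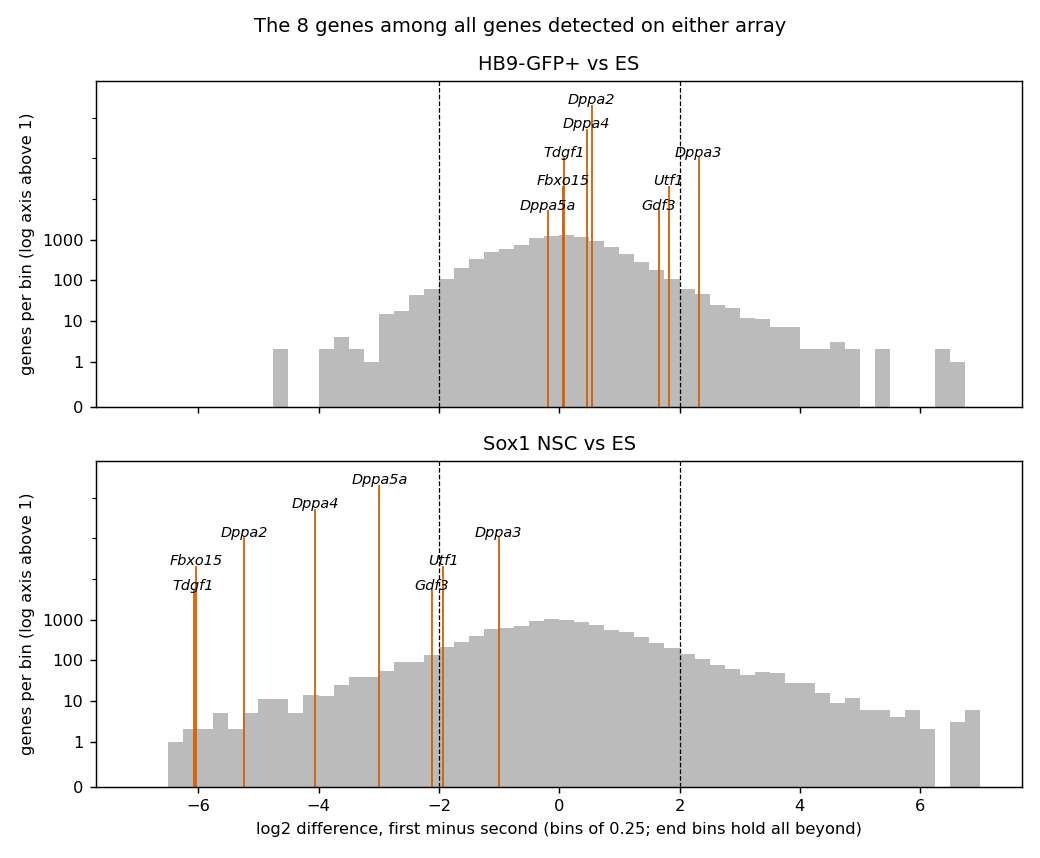
Number of genes per bin of 0.25 log2 units (log axis) for the HB9-GFP+-labelled array minus ES, above, and Sox1 minus ES, below, over genes detected on either array, with the 8 genes as orange lines. In the upper panel Gdf3, Utf1 and Dppa3 lie to the right of the other 5, and in the lower panel Tdgf1 and Fbxo15, the second with an undetected Sox1 signal, lie toward the left end.

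The comparison of Sox1 neural stem cells with ES cells sets neural progenitors against the pluripotent state. Of the 8 genes 6 were lower on the Sox1 array and 0 higher, against 5.21% of 10532 detected genes called lower and 6.20% called higher. Where both arrays were detected, the log2 differences were -6.08 for Tdgf1, -5.23 for Dppa2, -4.06 for Dppa4 and -2.99 for Dppa5a. The Sox1 signals of the other 4 genes were undetected, so their differences are not exact. Fbxo15 was at 105 against 6857.6 and Gdf3 at 131.6 against 571.6, and both were called lower. Utf1 and Dppa3 were not called, since their ES signals of 510.5 and 231 were too close to the Sox1 signals of 134.6 and 115.1. The second Gdf3 probe set gave -0.79, so the Gdf3 call rests on the brighter one, and it was lost with both probe sets averaged (-1.45) and with the low level raised by 1 log2 unit (-1.86).

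The median of the 8 genes was -3.52, against -0.02 over all detected genes. Among 16 naive pluripotency factors, 14 were lower and 0 higher, with a median of -3.80. The exceptions were Sox2, which also marks neural progenitors, at 16172.6 against 18876.8, and Sall4 at 6334.6 against 6565.2. The pooled SD among probe sets was 0.56, and Tdgf1, Dppa2, Dppa4 and Dppa5a, detected on both arrays, differed by more than that.

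On the Sox1 array 4 of the 8 genes had a signal above detection, namely Dppa2, Dppa4, Dppa5a and Tdgf1, and the other 4 were between the low and the detection level. Over all genes 9376 of 18193 were detected there, so the count of 4 of 8 is near the share of all genes. Of the naive pluripotency factors 9 of 16 were detected on the same array, among them Pou5f1 at 514.3, Zfp42 at 593 and Nanog at 324.3. Their part in the Sox1 signals of the 8 genes was not tested.

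Most genes of the pathway of Tdgf1 and Gdf3 were not called on the Sox1 array. Of 21 measured Nodal and Gdf pathway genes 3 were lower than on the ES array and 2 higher. Over all detected genes 5.21% were lower and 6.20% higher. The list's median log2 difference was -0.28. The ligand gene Nodal was at 468.9 in Sox1 cells against 2911.5 in ES cells, its antagonist Lefty2 at 220.7 against 2487.2, and the activin subunit gene Inhbb at 3.8 against 437.2. The 2 higher genes were Fst, the activin-binding antagonist follistatin, at 6542.3 against 134.2, and the signal transducer Smad3 at 2013.8 against 416.2. The receptor genes Acvr1b and Acvr2b were not called.

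Among early-embryo and germline genes 7 of 21 were lower on the Sox1 array than on the ES array and 0 higher, with a median of -0.76. The largest difference was that of Stra8, at 90.3 against 7962.3, followed by Mael, a piRNA-pathway gene, at 46.1 against 805.2. Of 9 DNA methylation genes 3 were lower, with the catalytically inactive methyltransferase cofactor Dnmt3l at 106.8 against 5822.8, and also Tet1 and Tet2. In the ubiquitin ligase core that F-box proteins join, none of 7 measured genes was called, with Cul1 at 2775.7 against 2449.1.

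**Figure D4:**
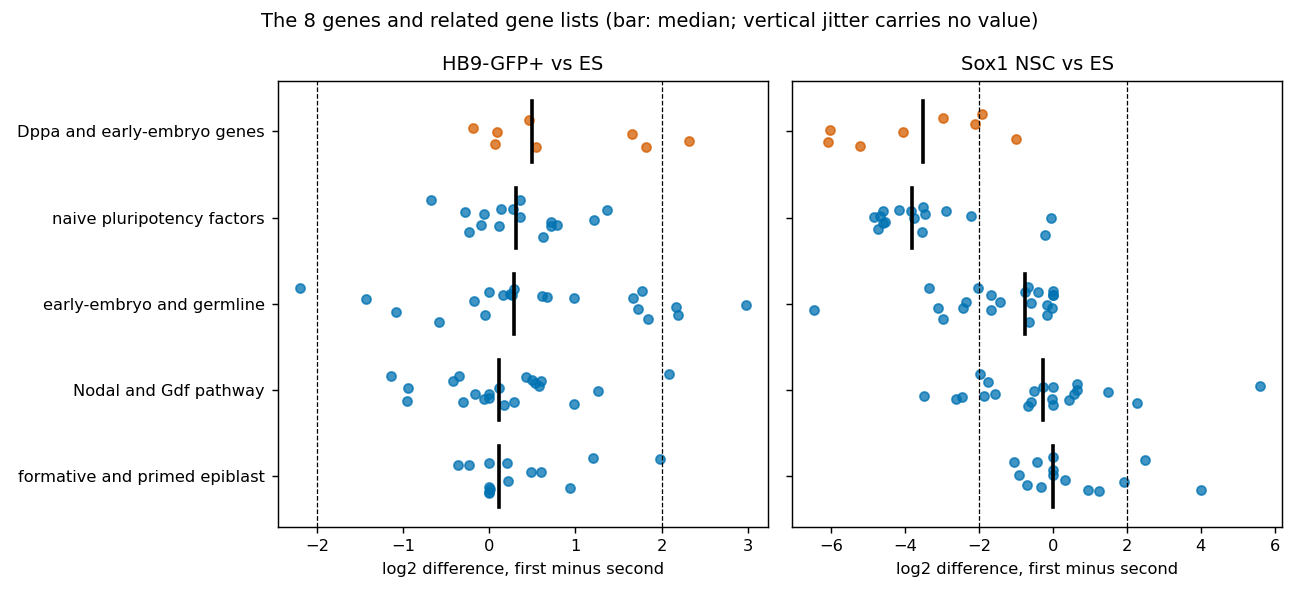
Log2 difference of each gene (points) and the median (bar) for the 8 genes and 4 related lists, for the HB9-GFP+-labelled array minus ES on the left and Sox1 minus ES on the right. The median of the 8 genes is 0.50 on the left and -3.52 on the right, beside 0.31 and -3.80 for the naive pluripotency factors.

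The HB9-GFP+-labelled array was also set against the Sox1 array. All 8 genes were higher on it, against 5.58% of 10496 detected genes, with 0 lower against 6.89%. Their median log2 difference was 4.15, beside 0.04 over all detected genes. Among the 4 genes detected on both arrays, Dppa5a was 6.97-fold higher and Tdgf1 71.6-fold. With the probe sets of a gene averaged, 7 genes were higher, since Utf1 was at a log2 difference of 1.45 in place of 3.74, and Gdf3, still called, was at 2.66 in place of 3.78. At the level of probe sets 9 of 12 were called higher, against 4.98% of all detected probe sets, and those not called were the dimmest Utf1 probe set, the second Utf1 one at a bound of at least 3.96-fold, and the second Gdf3 one, at 416.6 against 143.1. This comparison shares the Sox1 array with the one above.

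Against granule cells, neurons taken from the brain, all 8 genes were higher on the HB9-GFP+-labelled array, against 9.21% of 10922 detected genes, and 0 lower, against 12.3%. Tdgf1 was at least 238-fold higher, Fbxo15 at least 91.1-fold, Utf1 and Gdf3 at least 22.9-fold each, and Dppa3 at least 14.6-fold. Dppa5a was at 27366.6 against 79.1. With probe sets averaged, 7 genes were higher, as Utf1 was at a log2 difference of 1.45 in place of 4.52. In granule cells set against ES cells, 7 of the 8 genes were lower and 0 higher, against 8.27% of 10970 detected genes called lower and 11.3% called higher. Dppa3 was the exception, at least 2.93-fold lower from an ES signal of 231, and Utf1 was at least 6.48-fold and Gdf3 at least 7.26-fold lower. With probe sets averaged, the Utf1 difference was -0.15 in place of -2.70 on the log2 scale and its call was lost. Both calls were lost with the low level raised by 1 log2 unit, at -1.70 for Utf1 and -1.86 for Gdf3.

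Granule cells were compared with Sox1 cells last. Only 4 of the 8 genes were detected on either of these arrays, and 2 of them, Dppa5a and Dppa4, were lower on the granule array, against 3.65% of 10405 detected genes called lower. None was higher, against 6.39%. Dppa4 was at 40.5 on the granule array against 327.5 on the Sox1 array, at least 4.16-fold lower, while Dppa2 and Tdgf1 had bounds of 3.27-fold and 3.32-fold and were not called. The Dppa4 difference was -2.06 on the log2 scale. Its call was lost with the low level raised by 1 log2 unit, at -1.06. It was also lost, at -1.96, close to the value as scaled, when arrays were centred on reference genes, a setting that moved the median log2 difference of all detected genes to 0.46, against -0.07 as scaled.

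Likeness of pattern was measured as the root mean square distance between log2 values over the 4 arrays, each gene centred on its own mean and floored at the low level, among 11570 other detected genes. Utf1 and Gdf3 were each other's nearest genes, 0.08 log2 units apart, and the next nearest for both was the kinase gene Ripk4. Utf1 and Gdf3 were undetected on the granule and Sox1 arrays, so their likeness rests mainly on 2 arrays. It also rests on the brighter Gdf3 probe set. The other one differed by 0.75 between the HB9-GFP+-labelled and ES arrays, against 1.66. Nearest to Dppa4 was Nanog, at a distance of 0.10, and then the uridine phosphorylase gene Upp1 at 0.15. Dppa2 had Tdgf1 and the small heat shock protein gene Hspb1 nearest, both at 0.35, and Tdgf1 had Dppa2 and then Fbxo15, at 0.59.

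Distances among the Dppa genes varied widely on this measure. The nearest genes to Dppa3 were Oas1a, an interferon-induced oligoadenylate synthetase gene (0.18), and Pnma5 (0.27), while Utf1 lay 0.44, Gdf3 0.50, Dppa4 1.67, Dppa2 2.10 and Dppa5a 2.59 away. Dppa5a in turn lay 1.30 from Dppa4 and 1.45 from Dppa2, and Dppa2 and Dppa4 were 0.54 apart. Fbxo15 had Dnmt3l (0.18) and Mymx (0.24) nearest. Dppa5a had the least close neighbours in pattern, the cadherin gene Cdh1 at 0.81 and Trap1a at 0.94. Distances over 4 arrays describe these arrays, and the granule values of most of these genes are at the floor. The floor also limits how far a dimmer probe set can drop. On the HB9-GFP+-labelled array Dppa3 was at 1153.5 and Dppa5a at 27366.6. How much of the distances comes from this limit was not tested.

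The order of genes along the chromosomes was taken from RefSeq, in which all 8 were found. Dppa4 and Dppa2 are direct neighbours, and so are Gdf3 and Dppa3, with Nanog as the next measured gene after Dppa3. The nearest 2 measured genes on each side of the 8 gave 24 distinct other genes, of which 13 were detected on the Sox1 or the ES array. Of these, 6 were lower and 1 higher on the Sox1 array than on the ES array, beside the 5.21% and 6.20% of all detected genes given above.

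The lower ones were Nanog, Apobec1, Morc1, Ooep, Ddx43 and Lrrc2, and the higher one was Timm21, beside Fbxo15. Morc1, a germ cell gene of transposon silencing close to Dppa2, was at 88.6 in Sox1 cells against 4304.8 in ES cells. Ooep, an oocyte gene next to Dppa5a, was at 138 against 6502.2, and Ddx43, a helicase gene beyond it, at 54.8 against 1282.9. Apobec1, the cytidine deaminase gene next to Gdf3, was at 14.7 against 521.6, and Lrrc2, next to Tdgf1, at 6.5 against 2377.4. The 4 measured neighbours of Utf1 were undetected on all 4 arrays, so none could be called. No neighbour was called between the HB9-GFP+-labelled array and the ES array, where Dppa3 was higher. Ddx43, at 321.8 against 1282.9 on the ES array, fell just short of being called lower.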

How the data were processed

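Each of 4 RNA samples, from 4 kinds of mouse cell, was hybridised to an Affymetrix array of its own. The authors deposited linear intensity values with 1 decimal for 45101 probe sets, from 0.1 to 43110.3. GCRMA is named per the submitters' processing notes, without a version, but every array's mean after trimming 2% at each end was 500.0, so the step that made the values is uncertain. No detection flags were used.

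Symbols came from the platform annotation. A gene was represented by its single-symbol probe set with the highest mean log2 value over the 4 arrays, control probe sets (64) left out. Python 3.11.15, NumPy 2.4.6 and pandas 2.3.3 were used, and the calling rule was tested on simulated data. The simulated noise was smaller than the spread among probe sets here, and changes were put only in genes well above the low level. That test therefore does not cover changes in weakly detected genes. The 8 genes and all lists were chosen with earlier results of these data known. Named genes are the 8, up to 4 of each list with the largest absolute difference in the comparison discussed, the 2 genes most alike in pattern to each, and 2 measured neighbours on each side in gene order. Pou5f1, Sox2, Sall4, Smad3, Acvr1b, Acvr2b, Cul1, Mnx1 and Cdx2 fall outside that rule and were chosen after their values were seen. In 8 alternative settings, 1 choice at a time was changed. The number of arrays limits precision.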

Additional observations from a re-analysis of the deposited data

How the results depend on the processing

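Each comparison has 1 array a group, so no alternative carries a test. No called difference of the 8 genes turned its sign with quantile normalization, centring on reference genes or averaging of probe sets. The other settings change the low level, the threshold or the detection filter, and these cannot turn a sign. Between the HB9-GFP+-labelled array and ES, 1 gene was higher as reported, 3 with a threshold of 1 log2 unit and 0 with 3 units. Over all 10117 detected genes, 202 were higher as reported, 1210 with 1 unit and 51 with 3 units. For granule against Sox1, 2 genes were lower as reported, 1 with centring on reference genes, 1 with the low level raised by 1 log2 unit and 1 with the 3-unit threshold, but 4 with the low level lowered by 1 log2 unit and 4 with the 1-unit threshold. Over all genes, 380 were lower as reported, 254 with centring, 267 with the low level raised and 123 with the 3-unit threshold. With the low level lowered 492 were lower, and with the 1-unit threshold 1589. The other counts of the 8 genes called stayed within 1.5 times, but calls of Utf1 and Gdf3 were lost where probe sets were averaged or the low level raised, as given with each comparison. With the low level raised, 2 of the 8 genes were detected on the Sox1 array, and with it lowered all 8 were. On the ES array 7 were detected with it raised, Dppa3 being undetected, and on the granule array 1 with it lowered. Detection thus depends on the floor, most of all on the Sox1 array. Raising the low level could not change the Dppa3 difference of 2.32 between the HB9-GFP+-labelled array and ES. Both signals, 1153.5 and 231, lie above the raised level of 157.5. Quantile normalization gave 2.37 for this difference, and centring gave 2.27.

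Over all genes, centring on 8 reference genes moved the granule comparisons. The HB9-GFP+-labelled array against granule had 607 higher and 2032 lower, with a median of -0.53, against 1006 and 1348 with a median of 0.13. Granule against ES had 1855 higher and 604 lower, with a median of 0.49, against 1243 and 907 with -0.09, and granule against Sox1 had 1058 and 254, against 665 and 380. Quantile normalization gave 232 higher and 110 lower for the HB9-GFP+-labelled array against ES, in place of 202 and 148. With probe sets of a gene averaged, 407 genes were lower for the HB9-GFP+-labelled array against Sox1, in place of 723, 865 for it against granule, in place of 1348, 781 higher for granule against ES, in place of 1243, 436 higher for granule against Sox1, in place of 665, and 387 higher and 422 lower for Sox1 against ES, in place of 653 and 549. With the low level raised, 92 genes were lower for the HB9-GFP+-labelled array against ES, in place of 148. Thresholds of 1 and 3 log2 units moved every count over all genes by construction. No paired analysis was possible because each group has 1 array.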

Other observations

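Markers of extraembryonic lineages were also read. Of 14 measured trophoblast and primitive endoderm genes, 6 were detected on the HB9-GFP+-labelled array, 2 in granule cells, 8 in Sox1 cells and 7 in ES cells. Dab2, an endocytic adaptor gene of primitive endoderm, was the 1 gene called lower on the HB9-GFP+-labelled array than on the ES array, at 232.6 against 947.7. On the Sox1 array, the plasma carrier gene Ttr was at 1062.6 against 24.7 on the ES array and Afp, the fetal albumin homolog, at 528 against 16.6, while Gata6 was at 107.7 against 457.9 and Tfap2c at 488.5 against 1976.9. Cdx2, which defines trophoblast, had signals between 4.9 and 49 on the 4 arrays and was not detected.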
